A study of Rattus norvegicus with 4 samples.

Results

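Cadherins and non-clustered protocadherins were examined in nuclei of the rat nucleus accumbens, as every listed gene whose symbol starts with Cdh or Pcdh followed by a digit. The rule found 35 of 30560 listed genes, 23 of them cadherins and 12 protocadherins. They carry 34 symbols, because Pcdh7 is listed under 2 identifiers. ENSRNOG00000063828 held 104582 unique molecular identifiers (UMIs, counted RNA molecules) and stands for Pcdh7 below, whereas ENSRNOG00000012367 held 187 and is called the Pcdh7 second identifier.

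Cadherins are calcium-dependent adhesion proteins whose outer domains bind cadherins on a facing cell and whose inner tails bind catenins, which link them to the actin skeleton. Type I and type II cadherins bind mainly their own kind or close relatives, so the set of cadherins that a neuron expresses has long been studied as a code for sorting cells and choosing synaptic partners. Protocadherins lack the classical catenin-binding tail. Delta-protocadherins act in axon growth and synapse remodelling, and some cadherins are atypical, such as Cdh13, which is held to the membrane by a lipid anchor and has no inner tail. By these families the genes were 5 type I, 13 type II and 5 atypical cadherins, and 5 delta-1, 4 delta-2 and 3 other protocadherins.

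The tissue came from 16 Sprague-Dawley rats, 90 to 120 days old, that had been injected daily for 7 days and placed in an open field. Female and male rats received either saline or 20 mg/kg cocaine, a blocker of dopamine reuptake, into the abdominal cavity, and tissue was taken 1 h after the last injection. A punch 2 mm wide was centred on the core of the nucleus accumbens, so neighbouring tissue could enter it. Nuclei of 4 rats were pooled into each of 4 libraries (females on saline, females on cocaine, males on saline, males on cocaine), sorted on a DNA dye and counted by single-nucleus RNA sequencing of transcript 3′ ends. Each treatment therefore has 2 libraries, 1 of each sex. A p-value below measures the spread between those pools, not between single rats. The edgeR test shares that spread between genes, and in some classes, named below, it used the shared value alone.

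The libraries held 6213 to 7265 nuclei and 31484217 to 40737786 UMIs each, with medians of 4363 to 5066 UMIs per nucleus. After filters and removal of likely doublets, 24843 nuclei remained. Eif2s3y, a Y-linked gene, had 1 and 3 UMIs in libraries labelled female and 2097 and 1895 in those labelled male. Across the libraries, 81 barcode sequences occurred in more than 1. The punches were not of even composition: the glutamatergic cluster held 30, 253, 49 and 118 nuclei and the cluster led by Klhl1 and Htr7 held 806, 455, 394 and 299 in the libraries of females on saline, females on cocaine, males on saline and males on cocaine. Values for the 4 libraries are given in that order throughout, as counts per 1000000 UMIs of a class (CPM). They are not scaled to transcript length, so they compare classes within a gene and not one gene with another.

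Classes of nuclei were drawn by clustering on genes that did not include any cadherin or protocadherin, and were named from marker genes. Medium spiny neurons (MSNs), the projection neurons of the striatum, formed D1 clusters with Reln (3208 nuclei) and with Htr4 (1672), D2 clusters led by Calcr (3456) and by Zfp804a (362), and eccentric MSNs (1955). Other GABAergic neurons were a Klhl1 and Htr7-led cluster (1954), an Adamtsl1 and Stac-led cluster (306), Pvalb/Pthlh interneurons (507), Sst interneurons (236) and cholinergic interneurons (78). The Pvalb symbol itself is not among the listed genes used here, and the Pvalb/Pthlh class was named from Pthlh, Kit, Kcnc2, Btbd11 and Sox6. Glutamatergic neurons (450), astrocytes, oligodendrocytes, oligodendrocyte precursors, microglia and vascular cells made up the rest, beside 396 nuclei in 4 clusters left unnamed.

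The levels of these genes varied between neuron classes. The ratios and overlaps in this paragraph were not computed over all genes, so they cannot be read as particular to the set. Of the 35, 23 reached a mean of 20 CPM in at least 1 of the 11 neuron classes and 12 did not. Between the class with the highest and the class with the lowest mean, the median ratio was 11.4 over 22 of those 23, and 11 of the 22 differed more than 10-fold. The other one, Cdh20, had 815 CPM in one class and no UMI in another. The lowest class was often the Adamtsl1 and Stac-led cluster, whose saline female library summed to only 187722 UMIs. Glutamatergic neurons had the highest mean of 5 of the 23, and Sst interneurons of 4. For 4 genes only (Cdh20, Pcdh18, Pcdh1 and Cdh10), all libraries of the top class lay above all libraries of the next class. For the other 19 the top classes overlapped, so their order is not fixed by these libraries. The map of mean levels by class adds the glial classes, without vascular cells, and the genes that reached that level only in those glia.

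**Figure D1:**
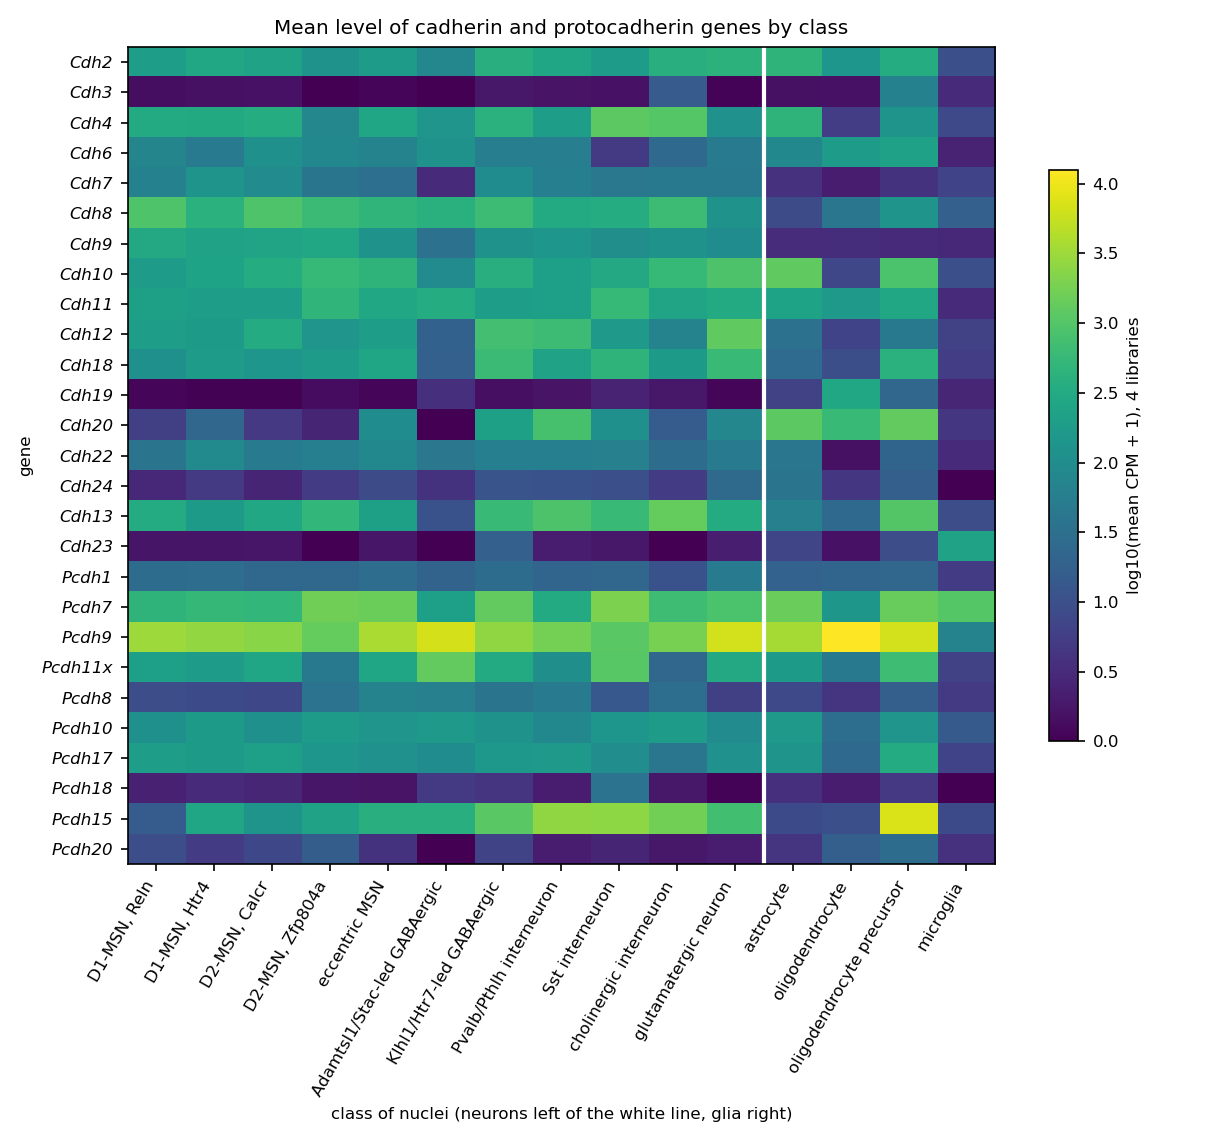
Mean level of each cadherin and protocadherin gene that reached 20 CPM in a class shown, by class of nuclei. Colour is the mean CPM over 4 libraries on a log scale, and the white line parts neurons from glia. Vascular cells are not shown. Pcdh15 runs from 14.8 CPM in Reln D1-MSNs to 2611 in Pvalb/Pthlh interneurons and 7288 in oligodendrocyte precursors.

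Type I cadherins include N-cadherin (Cdh2), the classical cadherin of synapses, and R-cadherin (Cdh4). Cdh2 was read in every neuron class, from 78.8 ± 74.3 CPM (SD, n = 4 libraries) in the Adamtsl1 and Stac-led cluster to 431 ± 71.7 in glutamatergic neurons. Cdh4 was steeper. Sst interneurons had 1019, 1288, 1284 and 1122 CPM and cholinergic interneurons 742, 791, 873 and 1715, so these classes overlapped. Klhl1 and Htr7-led neurons followed at 410 ± 46.6 CPM, the Zfp804a D2 cluster had 79.4 ± 21.3 and glutamatergic neurons 120 ± 52.6.

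Among type II cadherins, Cdh8 was highest in 2 of the MSN clusters. It was 934, 901, 994 and 934 CPM in Reln D1-MSNs and 937, 926, 949 and 955 in Calcr D2-MSNs, which overlapped, whereas Htr4 D1-MSNs had 440, 370, 417 and 441 and glutamatergic neurons 123 ± 30.6. Cdh9, best known from synapses of hippocampal mossy fibres, was also highest in Reln D1-MSNs, at 295 ± 29.3 CPM. Cdh7 was highest in Htr4 D1-MSNs (133 ± 30.2 CPM) and lowest in the Adamtsl1 and Stac-led cluster (2.15 ± 2.62). Cdh6 was 114 ± 12.4 CPM in Calcr D2-MSNs and 4.06 ± 4.85 in Sst interneurons, where 2 libraries held none.

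Cdh20 set the Pvalb/Pthlh interneurons apart from every other neuron class. Its libraries there held 1099, 634, 883 and 645 CPM, against 204, 187, 273 and 198 in the Klhl1 and Htr7-led cluster, which came next. Eccentric MSNs had 104, 102, 102 and 76.1 CPM, while Reln D1-MSNs had 4.32, 6.03, 5.02 and 4.79, and the Adamtsl1 and Stac-led cluster had no Cdh20 UMI in any library. The means of Cdh10, Cdh12 and Cdh24 were highest, among neuron classes, in glutamatergic neurons. Cdh10 was 800, 791, 1317 and 761 CPM there and at most 621 in any library of the Zfp804a D2 cluster, which came next. Cdh12 was 619, 1735, 1385 and 1308 CPM in glutamatergic neurons and 736 ± 114 in the Klhl1 and Htr7-led cluster, and the saline female library, with its 30 glutamatergic nuclei, overlapped the latter. Cdh24 was 25.5 ± 17.7 CPM in glutamatergic neurons and 10.6 ± 1.60 in the Klhl1 and Htr7-led cluster, which overlapped. Cdh18 was 630 ± 73.7 CPM in the Klhl1 and Htr7-led cluster and 598 ± 204 in glutamatergic neurons. Cdh11 was highest in Sst interneurons (549 ± 59.5 CPM) and Zfp804a D2-MSNs (489 ± 101).

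Atypical cadherins are represented in neurons by Cdh13, T-cadherin. It was highest in cholinergic interneurons, at 1998, 1281, 1570 and 640 CPM from 8 to 27 nuclei a library, and overlapped the 900 ± 79.4 CPM of Pvalb/Pthlh interneurons. The Adamtsl1 and Stac-led cluster had 9.71 ± 8.80 CPM.

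Pcdh15, best known as a part of the tip links of hair cells in the inner ear, ranged over more than 100-fold between neuron classes. It was 2849, 2033, 2875 and 2686 CPM in Pvalb/Pthlh interneurons and 2328, 2670, 2515 and 2472 in Sst interneurons, which overlapped. Cholinergic interneurons followed with 1663 ± 312 CPM and the Klhl1 and Htr7-led cluster with 1128, 1070, 1247 and 1051. MSNs held far less, and the 2 D1 clusters were apart: 10.2, 15.1, 19.6 and 14.2 CPM with Reln against 186, 215, 276 and 346 with Htr4.

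Delta-1 protocadherins include Pcdh7, Pcdh9, Pcdh11x and Pcdh1. Pcdh7 was 2127, 1924, 1994 and 1687 CPM in Sst interneurons and 1667, 1726, 1513 and 1622 in the Zfp804a D2 cluster, with 1535 ± 250 in eccentric MSNs. The other D2 cluster had 494, 526, 539 and 546 CPM and Pvalb/Pthlh interneurons 328, 383, 258 and 333. Pcdh11x was highest in the Adamtsl1 and Stac-led cluster (831, 1780, 1416 and 1278 CPM) and in Sst interneurons (1055, 990, 1134 and 1219). Zfp804a D2-MSNs had 48.7, 52.0, 31.1 and 47.4 CPM and cholinergic interneurons 21.8 ± 15.5. Pcdh9 was abundant in every neuron class, from 1123 ± 173 CPM in Sst interneurons to 6762 ± 883 in the Adamtsl1 and Stac-led cluster and 6520 ± 698 in glutamatergic neurons. Pcdh1 had its highest mean in glutamatergic neurons, at 47.5 ± 5.97 CPM against 28.7 ± 3.73 in eccentric MSNs.

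The delta-2 protocadherins found among the listed genes were Pcdh8, Pcdh10, Pcdh17 and Pcdh18. Pcdh8, also called arcadlin, which is induced by neuronal activity, was 65.8, 55.7, 70.6 and 72.0 CPM in eccentric MSNs and 8.03, 8.09, 7.69 and 9.27 in Reln D1-MSNs, with no overlap. The Adamtsl1 and Stac-led cluster, at 60.2 ± 9.34 CPM, did overlap the eccentric MSNs, and Pvalb/Pthlh interneurons had 48.4 ± 4.94. Pcdh10 varied little, from 81.7 ± 3.71 CPM in Pvalb/Pthlh interneurons to 185 ± 18.1 in Zfp804a D2-MSNs. Pcdh18 was read mainly in Sst interneurons among neurons, at 36.3, 24.1, 45.3 and 33.7 CPM, with 4.00 CPM in the next class.

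**Figure D2:**
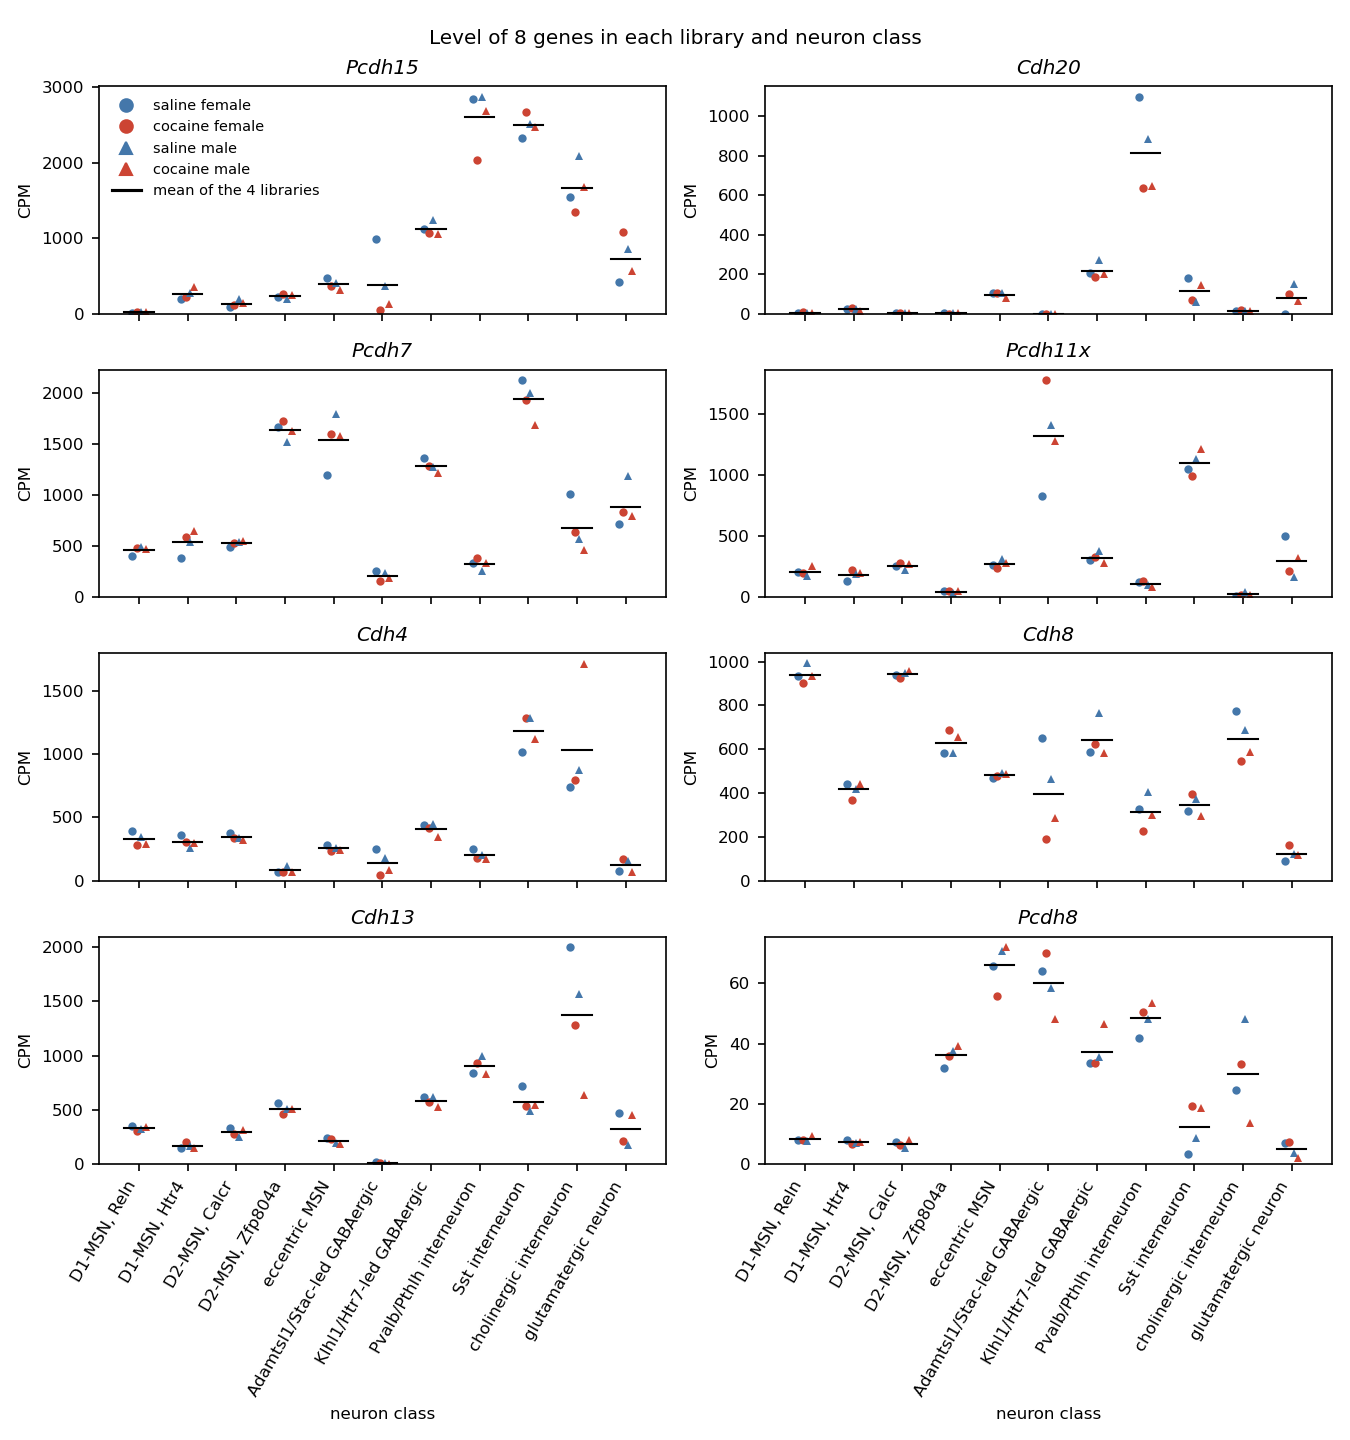
Level of 8 genes (CPM, each axis from 0) in each library of each neuron class; colour gives the treatment, the marker shape the sex, and the black line the mean of 4 libraries. Cdh20 stands apart in Pvalb/Pthlh interneurons, where its lowest library holds 634 CPM against at most 273 in the next class.

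Over the 23 genes, the closest pairs of neuron classes in log2 level were Reln D1-MSNs with Calcr D2-MSNs (Pearson r 0.959) and Htr4 D1-MSNs with Calcr D2-MSNs (r 0.956). The 2 D1 clusters were less alike (r 0.905, 5 genes more than 2-fold apart), and so were the 2 D2 clusters (r 0.886, 7 genes). Reln D1-MSNs and Calcr D2-MSNs had 1 gene more than 2-fold apart. The least alike pair was the Adamtsl1 and Stac-led cluster with Pvalb/Pthlh interneurons (r 0.418). These values describe 23 points that share the same libraries.

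Pairs of classes were then compared within libraries by edgeR's quasi-likelihood test with library as a block, Benjamini-Hochberg adjusted over all genes tested, with a difference called at an adjusted p under 0.05. Because the classes come from clustering the same nuclei, a call describes how these clusters differ. Between all D1-MSNs and all D2-MSNs, which diverge in their dopamine receptor and projection, 14 of 26 genes tested were called, 4 higher and 10 lower in D1-MSNs, against 16.7% of all genes tested. The median absolute log2 difference was 0.17 over the 26 and 0.09 over all genes. Cdh10 was lower in D1-MSNs, at 150, 208, 243 and 203 CPM against 342, 345, 417 and 368 (log2 difference -0.90, SE 0.05, adjusted p = 4.33e-12). Cdh12 was lower too, at 214, 183, 157 and 171 CPM against 355, 351, 275 and 284 (log2 difference -0.82, SE 0.04, adjusted p = 6.46e-14), and so was Cdh6 (-0.79, adjusted p = 5.29e-11). For these 3 type II cadherins no D1-MSN library reached a D2-MSN library. Smaller differences were called for Pcdh15 (-0.48), Pcdh7 (-0.38), Cdh8 (-0.30), Pcdh11x (-0.25) and Cdh13 (-0.19). Those of Cdh8 and Pcdh15 did not hold for each cluster. Cdh8 was 941 ± 38.8 CPM in Reln D1-MSNs and 942 ± 13.0 in Calcr D2-MSNs, and lower in Htr4 D1-MSNs. Mean Pcdh15 was 14.8 CPM in Reln D1-MSNs and 130 in Calcr D2-MSNs, but higher in Htr4 D1-MSNs than in either D2 cluster. Higher in D1-MSNs were Cdh20 (log2 difference 1.59, SE 0.16, adjusted p = 8.57e-08, at 10.9 ± 3.26 against 3.55 ± 0.837 CPM) and Pcdh9 (0.43, adjusted p = 2.62e-09). Without the library block 7 genes were called, and Pcdh7 was not called with nuclei gated 1 by 1 on marker UMIs (adjusted p = 0.718 by edgeR). The calls of Cdh9 and Pcdh10 were lost in 3 and 5 of 12 alternatives.

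D1-MSNs were not one population for these genes. Between the Reln and the Htr4 clusters, 19 of 24 genes tested were called, 10 higher and 9 lower with Reln, against 18.5% of all genes, and the median absolute log2 difference was 0.55 over the 24 and 0.14 over all genes. Pcdh15 was the furthest apart (log2 difference -4.08, SE 0.10, adjusted p = 6.76e-14). Cdh20 (-2.05, SE 0.16), Cdh22, a type II cadherin (-1.25, SE 0.08), and Cdh7 (-1.08, SE 0.12) were also lower with Reln. Cdh8 (1.20, SE 0.05, adjusted p = 9.2e-11), Cdh13 (0.99, SE 0.08, adjusted p = 8.27e-08) and Pcdh20, a protocadherin outside the delta groups (1.01, SE 0.23, adjusted p = 0.00409), were higher. Htr4 nuclei were 24.1%, 37.9%, 41.6% and 29.5% of D1-MSNs in the 4 libraries, so sums over all D1-MSNs mix the clusters in unequal shares. Without the library block 12 genes were called.

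D2-MSNs split in the same way. The comparison of their 2 clusters was added after the data were seen. Of 22 genes tested, 18 were called, 9 in each direction with Zfp804a, against 23.5% of all genes, with median absolute log2 differences of 0.77 over the 22 and 0.24 over all genes. Zfp804a D2-MSNs had more Pcdh8 (log2 difference 2.37, SE 0.21, adjusted p = 2.62e-11), Pcdh7 (1.58, SE 0.06, adjusted p = 2.55e-21), Cdh11 (1.32, SE 0.07) and Cdh13 (0.76, SE 0.07). They had less Pcdh11x (-2.58, SE 0.11, adjusted p = 8.46e-20), Cdh4 (-2.14, SE 0.11), Cdh12 (-1.36, SE 0.09) and Cdh7 (-1.35, SE 0.15). Pcdh7 and Pcdh11x, both delta-1 protocadherins, thus went in opposite directions, and for each of them the 2 clusters' libraries did not overlap.

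Eccentric MSNs against D1-MSNs and D2-MSNs together gave 22 called of 26 tested, 11 in each direction, in a comparison where 38.4% of all genes were called. The median absolute log2 difference was 0.73 over the 26 and 0.21 over all genes. Cdh20 (3.56, SE 0.10, adjusted p = 1.55e-13), Pcdh8 (2.89, SE 0.09, adjusted p = 4.5e-13), Pcdh15 (1.70, SE 0.15) and Pcdh7 (1.41, SE 0.06) were higher in eccentric MSNs on the log2 scale. Cdh7 (-1.61, SE 0.08), Cdh9 (-1.18, SE 0.11) and Cdh8 (-0.83, SE 0.05) were lower.

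Sst and Pvalb/Pthlh interneurons differed in 16 of 22 genes, 8 in each direction, against 23.4% of all genes, and the medians of the absolute log2 difference were 0.73 and 0.28. Sst interneurons had more Pcdh18 (4.62, SE 0.55), Pcdh11x (3.29, SE 0.15, adjusted p = 1.27e-11), Pcdh7 (2.54, SE 0.13) and Cdh4 (2.54, SE 0.14). For Pcdh18, Pvalb/Pthlh interneurons had a mean under 4.00 CPM, so the size of that difference rests on few UMIs. Pvalb/Pthlh interneurons had more Cdh6 (-3.58, SE 0.46), Cdh20 (-2.95, SE 0.20), Cdh12 (-2.09, SE 0.16) and Pcdh8 (-1.96, SE 0.32). Pcdh15, abundant in both, was not called, with a log2 difference of -0.09 and an adjusted p of 0.68 in the same test.

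Glutamatergic against all GABAergic neurons gave 19 called of 28 tested, 9 higher and 10 lower, where 27.8% of all genes were called, with medians of the absolute log2 difference of 0.93 and 0.34. Cdh24 (2.48, SE 0.30), Cdh12 (2.00, SE 0.24), Cdh10 (1.59, SE 0.13), Cdh18 (1.37, SE 0.15) and Pcdh9 (1.24, SE 0.12) were higher in glutamatergic neurons. Cdh8 was lower (-2.51, SE 0.15, adjusted p = 2.6e-08), and so were all 4 delta-2 protocadherins of the set, from Pcdh10 (-0.47, adjusted p = 0.0245) to Pcdh18 (-3.29, adjusted p = 0.0198). Pcdh18 had a mean of 0.0925 CPM in glutamatergic neurons. It was thus tested through its GABAergic counts, and its call says little about glutamatergic neurons.

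**Figure D3:**
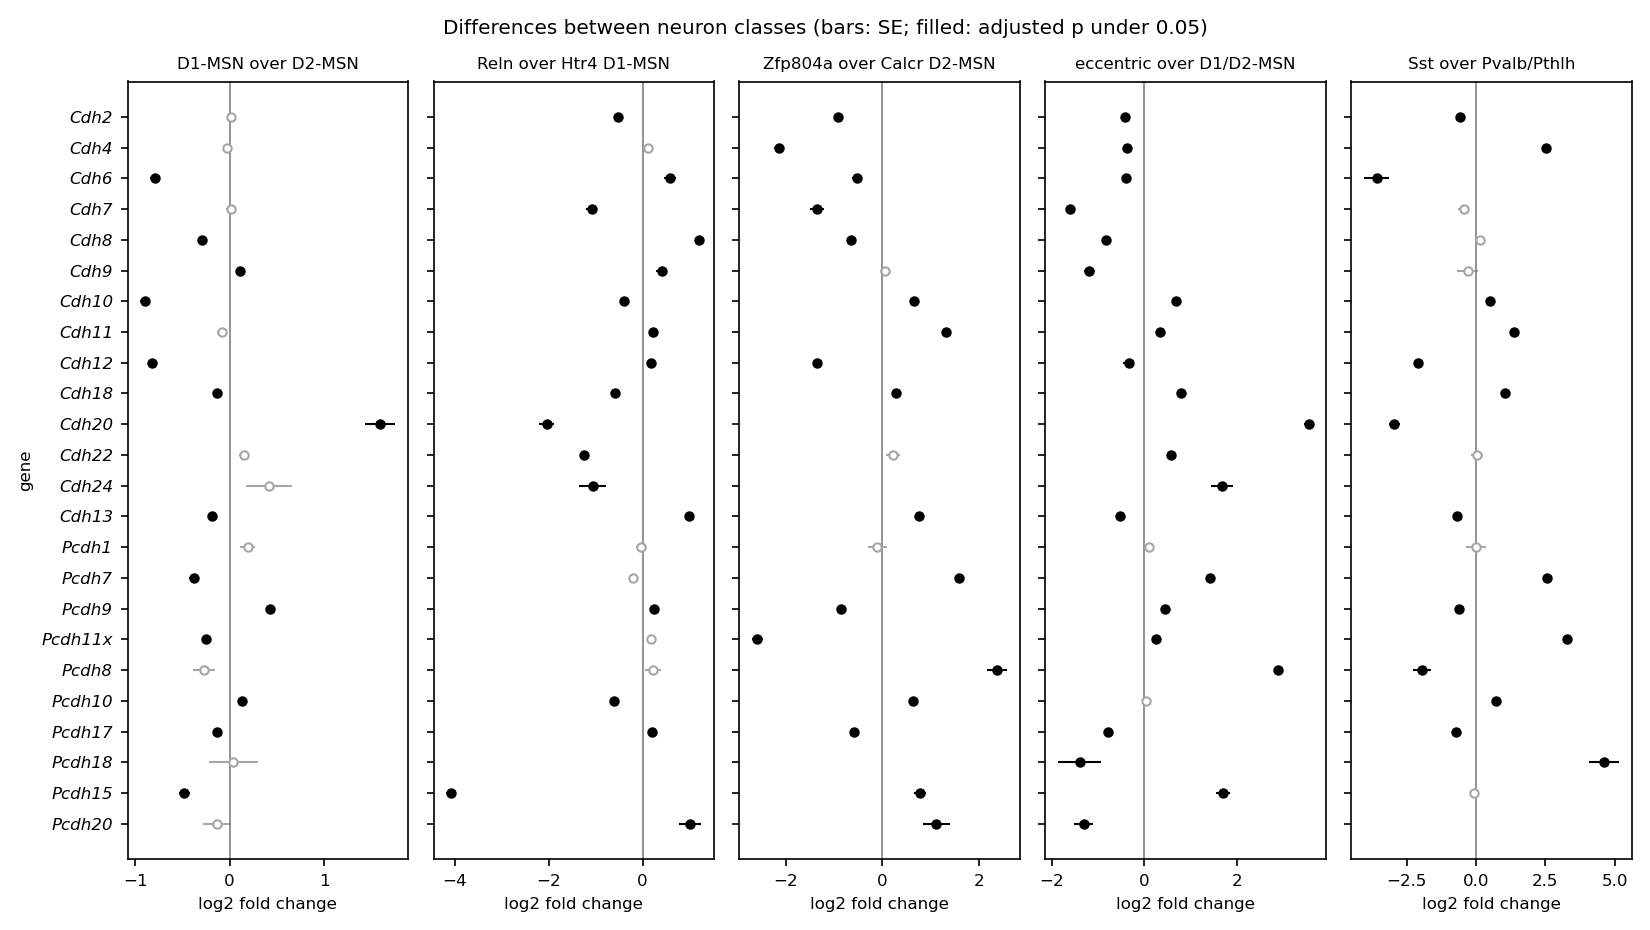
Log2 fold change of each tested gene in 5 pairs of neuron classes, with bars for the SE; filled points passed an adjusted p under 0.05. The shifts between the Reln and Htr4 clusters of D1-MSNs reach -4.08 for Pcdh15, whereas between D1-MSNs and D2-MSNs Cdh20, at 1.59, lies furthest from 0.

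Glia held some of these genes at levels that no neuron class reached. Of the 28 genes that reached 20 CPM in any class, 15 had their highest mean in a glial or vascular class, and 5 of them (Cdh3, Cdh15, Cdh19, Cdh23 and Pcdh20) reached 20 CPM only there. Vascular means rest on few UMIs, with 9 nuclei and 12175 UMIs in the saline female library. Cdh15 was highest in that class, at 37.9 ± 34.4 CPM. Pcdh9 was 12601 ± 1266 CPM in oligodendrocytes and made up 87.4% of their UMIs from the 35 genes, against 10.2% in Sst interneurons. Oligodendrocyte precursors had 7629, 6989, 7387 and 7146 CPM of Pcdh15 and also held Cdh20 (1303 ± 162) and Cdh3, P-cadherin (63.0 ± 11.4). Cdh19, a type II cadherin of the glial lineage, was 307, 295, 291 and 252 CPM in oligodendrocytes. Astrocytes had Cdh10 at 1256 ± 43.9 CPM and Cdh20 at 1178 ± 167. Microglia had Cdh23, the partner of Pcdh15 in tip links, at 263, 271, 252 and 142 CPM. The Cdh23 gene overlaps 3 coding genes in the RefSeq gene table, so reads in those overlaps may not be told apart. Taken as a share of all UMIs in a class, the 35 genes ranged from 0.146% in microglia to 2.15% in oligodendrocyte precursors, and from 0.657% (Htr4 D1-MSNs) to 1.31% (glutamatergic) among neurons.

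The effect of cocaine was tested within each of the 12 named classes that had at least 25 nuclei in every library (both D1 clusters and both D2 clusters summed), with sex as a covariate. In D1-MSNs none of 26 genes tested passed, where 0.158% of all genes did by edgeR. DESeq2 also called none of them. An unadjusted p under 0.05 was found for 5 of the 26, Pcdh11x, Cdh15, Cdh4, Cdh18 and Cdh24, with log2 differences of 0.24, 0.77, -0.25, -0.20 and -0.81 and adjusted p of 0.449 to 0.564 by edgeR. Without the saline male library, and with no sex term, 4 genes passed. Tested apart, the Reln cluster gave 0 of 25 genes (0.112% of all genes passed, and 6 of the 25 had an unadjusted p under 0.05) and the Htr4 cluster 0 of 25 (0.0338%, and 4).

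In D2-MSNs 1 of 25 genes passed, where 0.291% of all genes did. It was Cdh11, a type II cadherin, at 206, 178, 275 and 210 CPM, so each cocaine library lay below the saline library of its sex (log2 difference -0.35, SE 0.07, adjusted p = 0.0411 by edgeR), although the cocaine male and saline female libraries overlapped. The call was lost in 6 of 13 alternatives, among them DESeq2, the fit with no sex term and 3 of the 4 fits without 1 library. Its log2 difference ran from -0.55 to -0.13 over the fits without 1 library. In the Calcr cluster Cdh11 was 175, 163, 234 and 183 CPM (log2 difference -0.28, adjusted p = 0.0490, where 0.798% of all genes passed), and in the Zfp804a cluster, where 0 of 21 genes passed by edgeR against 0.378% of all genes and 6 had an unadjusted p under 0.05, it was 504, 368, 612 and 474. Zfp804a nuclei were 9.47%, 7.61%, 11.1% and 9.77% of D2-MSNs in the 4 libraries, and what these shares contributed to the D2-MSN sums was not tested. In D1-MSNs Cdh11 was 181, 196, 225 and 219 CPM. The effect in D1-MSNs minus that in D2-MSNs was 0.36 on the log2 scale (SE 0.07, adjusted p = 0.0221 by edgeR), in a test that called 0.0906% of all genes and no other gene of the set. Without the cocaine female library, a fit added after the data were seen, that difference was 0.32 and was not called (adjusted p = 0.916 by edgeR). Without each of the other libraries it was 0.31 to 0.42 and was called. Pcdh11x was 234, 264, 200 and 253 CPM in D2-MSNs and did not pass (log2 difference 0.21, adjusted p = 0.288).

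Most calls fell in Pvalb/Pthlh interneurons, where 8 of 21 genes passed and 2.42% of all genes did. The edgeR fit of this class took the spread from a trend shared over all genes. A gene's own spread between libraries had no weight in it. Cdh9 was 38.9, 234, 39.2 and 260 CPM, from 40, 245, 31 and 156 UMIs, with both cocaine libraries above both saline libraries (log2 difference 2.60, SE 0.19, adjusted p = 4.18e-40 by edgeR). All 13 alternatives called it, the adjusted p ranging from 2.77e-41 to 0.0126. Pcdh9 (1292, 2603, 1395 and 1648 CPM, log2 difference 0.59) and Cdh12 (488, 754, 604 and 782 CPM, 0.45) also rose. Cdh20 fell (1099, 634, 883 and 645 CPM, log2 difference -0.68, adjusted p = 6.22e-08 by edgeR), as did Cdh22 (78.7, 36.3, 78.4 and 36.7 CPM, -1.16, adjusted p = 0.000121 by edgeR). Cdh8, Pcdh15 and Cdh11 fell by 0.54, 0.35 and 0.47 on the log2 scale. Of the 8, Cdh9 passed in all 4 fits without 1 library, Cdh20 in 2, Pcdh9, Cdh22, Cdh8 and Pcdh15 in 1 each, and Cdh12 and Cdh11 in 0. DESeq2 called 1 of the 21, Cdh9. Leaving out 1 library left 1 (without the saline female or the saline male), 2 (without the cocaine female) or 6 (without the cocaine male).

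The make-up of the Pvalb/Pthlh cluster moved along with the treatment. Nuclei with a UMI of Sst, Npy or Vip, which mark other interneurons, were 5.69%, 20.8%, 7.03% and 15.9% of it. Sst itself was 1.94, 60.2, 5.06 and 58.3 CPM and Npy 4.86, 72.6, 11.4 and 45.0 there. Of the class's own markers, Pthlh was 117, 59.2, 130 and 88.3 CPM and Kit 298, 188, 297 and 202, lower in both cocaine libraries. Without the nuclei that held Sst, Npy or Vip UMIs, an alternative added after the data were seen, 6 genes passed. Cdh9 was then 24.9, 124, 35.4 and 167 CPM (log2 difference 2.21, adjusted p = 8.18e-19 by edgeR), Cdh20, Cdh22, Pcdh9, Cdh8 and Cdh11 still passed, and Cdh12 (0.17, adjusted p = 0.699 by edgeR) and Pcdh15 (-0.24, adjusted p = 0.290 by edgeR) did not.

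Cdh9 in this class sat in few nuclei. Those with at least 5 Cdh9 UMIs numbered 3, 23, 1 and 9 in the 4 libraries and held 365 of the 472 Cdh9 UMIs. Of these 36 nuclei, 19 held a UMI of Sst, Npy or Vip, 30 a UMI of Satb1 and 21 a UMI of Eya4. Satb1 and Eya4 were picked after the data were seen, and nuclei with their UMIs were not counted among the rest of the class. The remaining nuclei held 23, 34, 26 and 24 Cdh9 UMIs. Satb1 was 28.2, 97.4, 37.9 and 102 CPM in the class and Eya4 7.77, 109, 2.53 and 36.7. Nuclei with any Cdh9 UMI were 13.8%, 30.9%, 12.5% and 21.5% of the class. In Sst interneurons they were 28.21%, 36.11%, 42.65% and 33.33%, but only 0, 1, 1 and 0 nuclei there held at least 5 Cdh9 UMIs. Oligodendrocytes, which held fewer UMIs per nucleus, had 0.229% to 0.481%. The part of this make-up in the changes of Cdh9 and the other genes was not tested beyond the fit without those nuclei.

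In the Adamtsl1 and Stac-led cluster, with 42, 77, 108 and 79 nuclei, 2 of 13 genes passed and 0.433% of all genes did. Pcdh15 fell, at 991, 50.6, 368 and 120 CPM from 186, 13, 113 and 25 UMIs (log2 difference -2.93, SE 0.46, adjusted p = 0.0323 by edgeR). Cdh2 fell too, at 181, 35.0, 84.6 and 14.4 CPM from 34, 9, 26 and 3 UMIs (-2.41, SE 0.40, adjusted p = 0.0398 by edgeR). For both genes the cocaine libraries lay below the saline libraries. The summed markers of the Klhl1 and Htr7-led neurons were 234, 23.4, 65.1 and 19.2 CPM in this cluster and Drd2 was 101, 7.79, 16.3 and 4.81, and their part in the result was not tested. Neither gene was called by DESeq2 or with doublets kept. Cdh2 was also not called without the saline female library, with no sex term or with cadherins and protocadherins kept in the clustering.

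Astrocytes gave 2 of 21 genes past the threshold, where 1.37% of all genes passed. Here too the edgeR fit took the spread from the trend over all genes alone. Cdh12 was 39.0, 57.5, 2.25 and 39.1 CPM (log2 difference 1.25, SE 0.26, adjusted p = 0.000289 by edgeR) and Cdh8 4.63, 16.7, 2.25 and 7.33 CPM from 7, 25, 3 and 9 UMIs (1.75, SE 0.51, adjusted p = 0.0420 by edgeR). Both are far more abundant in neurons. Pde10a, an MSN gene, was 86.0, 536, 39.7 and 318 CPM in the same astrocyte nuclei. With no doublet removal the log2 differences were -0.115 for Cdh12 and -0.18 for Cdh8, so the sign turned. Over the fits without 1 library Cdh12 ran from 0.30 to 4.33 and passed in 1 of 4, and Cdh8 passed in 0 of the 3 that tested it. Neither passed by DESeq2 or with no sex term, and what neuronal RNA contributed was not tested further.

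No gene of the set passed in the remaining 7 classes by edgeR. These were oligodendrocytes (0 of 20, where 0.15% of all genes passed), oligodendrocyte precursors (0 of 23, 0.0236%), eccentric MSNs (0 of 23, 0.087%), Klhl1 and Htr7-led neurons (0 of 26, 0.0411%), microglia (0 of 3, 0.145%), Sst interneurons (0 of 19, 0.0%) and glutamatergic neurons (0 of 21, 0.0%). At an unadjusted p under 0.05 they had 7, 7, 3, 2, 1, 3 and 1 genes of the set, and DESeq2 called none. Cholinergic interneurons and vascular cells, with 8 and 9 nuclei in their smallest library, were not tested, nor were the unnamed clusters.

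**Figure D4:**
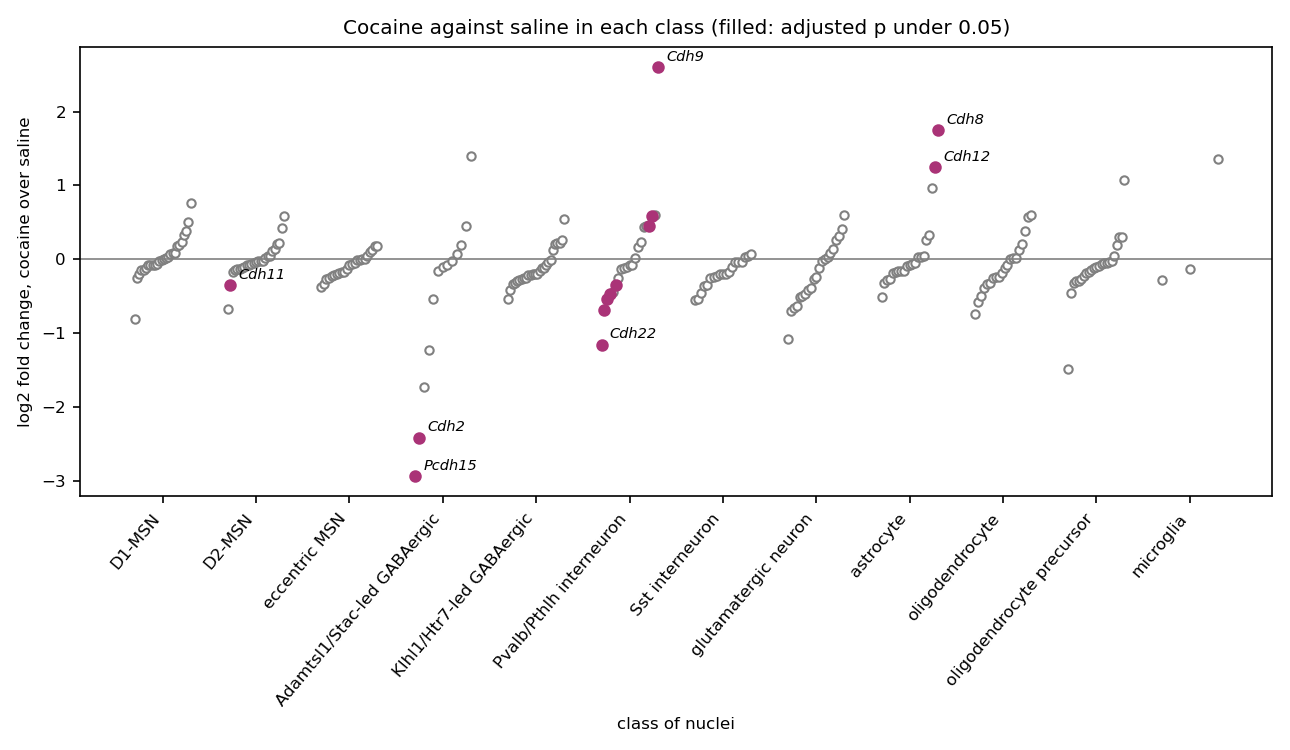
Log2 fold change of cocaine over saline for each tested gene of the set in each of the 12 classes tested; filled points passed an adjusted p under 0.05. The filled points are 8 in Pvalb/Pthlh interneurons, 2 in the Adamtsl1 and Stac-led cluster, 2 in astrocytes and 1 in D2-MSNs (Cdh11, -0.35).

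**Figure D5:**
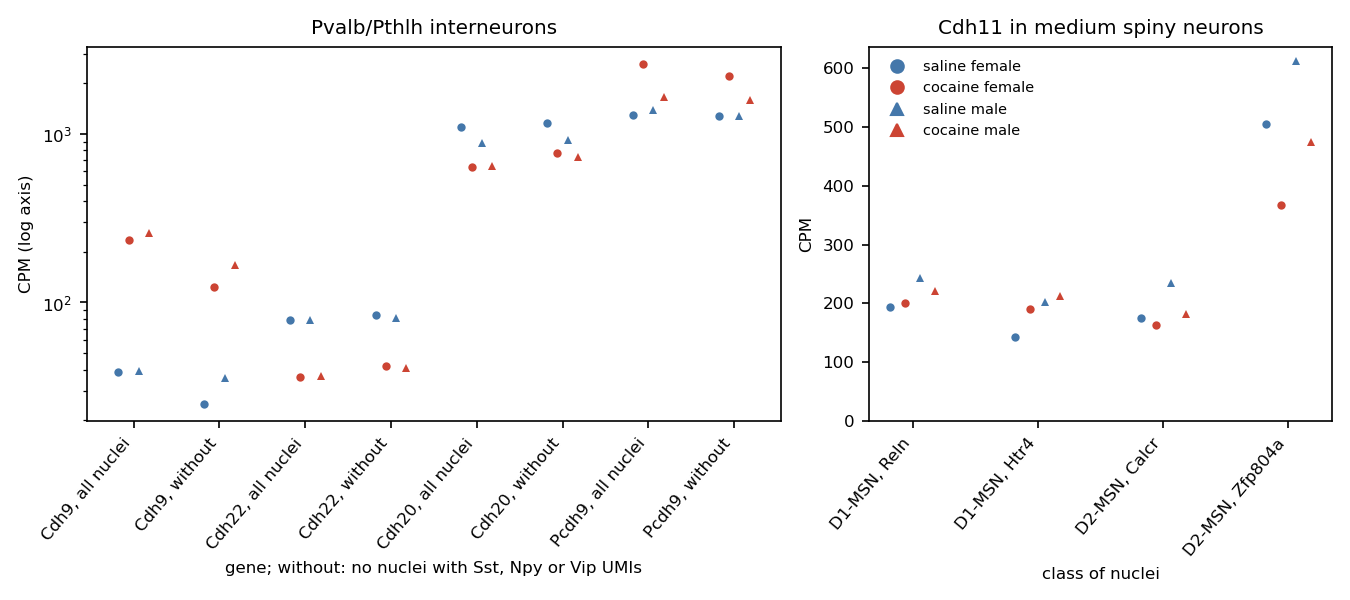
Level per library (CPM) of 4 genes in Pvalb/Pthlh interneurons, on a log axis and with or without nuclei holding Sst, Npy or Vip UMIs, and of Cdh11 in the 4 MSN clusters, on an axis from 0; colour gives the treatment and marker shape the sex. Cdh9 stands at 38.9 and 39.2 in the saline libraries and at 234 and 260 in the cocaine libraries, and at 24.9, 35.4, 124 and 167 without those nuclei.

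Sex was compared in the MSNs, with treatment in the model. In D1-MSNs none of 26 genes passed by edgeR, where 0.106% of all genes did and 9 genes of the set had an unadjusted p under 0.05. Pcdh15 was 53.5 and 95.7 CPM for females and 131 and 126 for males (log2 difference of females minus males -0.80, adjusted p = 0.158 by edgeR). Htr4 nuclei, with more Pcdh15 than Reln nuclei, were 24.1% and 37.9% of D1-MSNs in the female libraries and 41.6% and 29.5% in the male. What these shares contributed was not tested. In D2-MSNs 3 of 25 passed, where 0.841% of all genes did. Pcdh15 was lower in females (96.1 and 125 against 187 and 147 CPM, log2 difference -0.59, SE 0.11, adjusted p = 0.0103 by edgeR). Cdh12 was higher (355 and 351 against 275 and 284 CPM, 0.34, SE 0.07, adjusted p = 0.0116 by edgeR) and Cdh11 lower (206 and 178 against 275 and 210 CPM, -0.32, SE 0.07, adjusted p = 0.0352 by edgeR). Without the saline male library none of the 3 was called.

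Other genes of cadherin adhesion were read from lists of catenins, clustered protocadherins, giant cadherins, calsyntenins and nectins with their junction partners. Those named were chosen after their values were seen. In D1-MSNs and in D2-MSNs none of these genes passed for cocaine by edgeR. In Pvalb/Pthlh interneurons 4 of 28 tested did, where 2.42% of all genes passed: Fat3, a giant cadherin (0.56), and Clstn2, a calsyntenin (0.41), rose, and Dchs2, another giant cadherin (-0.62), and Pkp4, a catenin relative (-0.48), fell on the log2 scale. None of these 4 passed by DESeq2 or without the nuclei that held Sst, Npy or Vip UMIs, where the adjusted p was 0.0571 to 0.392 by edgeR. Of 9 catenins, 2 (against 16.7% of all genes) were lower and none higher in D1-MSNs than in D2-MSNs, the neuronal delta-catenin Ctnnd2 (-0.14) and Pkp4 (-0.26), whereas 5 of 9 (against 18.5% of all genes) were higher and none lower with Reln than with Htr4. Clstn2 was 2.71 higher on the log2 scale in D1-MSNs than in D2-MSNs and Nectin3, an adhesion receptor that joins cadherin junctions, 1.94 higher. Within D1-MSNs both were lower with Reln than with Htr4 (log2 differences -3.36 and -2.82). Few of the clustered protocadherins could be tested, 1 to 7 of 17 listed in a comparison. How reads were divided among these genes was not tested. Pcdhga7 in Sst against Pvalb/Pthlh interneurons (0.38, adjusted p = 0.0402 by edgeR) was the one call.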

How the data were processed

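The authors deposited, for each of 4 single-nucleus libraries, a matrix of raw UMI counts per gene and nucleus. It was made with Cell Ranger 6.1.2, per the file headers, on genome build rn7, per the submitters' processing notes, and the annotation release is not given in the sources used here. Nuclei with under 200 genes or over 5% mitochondrial UMIs were left out (4 in all), and 1381 likely doublets (4.97% to 5.81% of a library) were removed by the highest Scrublet scores at a rate of 0.8% per 1000 nuclei. Counts were scaled to 10000 per nucleus, logged and clustered in scanpy 1.11.5 (2000 variable genes without cadherins, protocadherins, immediate-early, mitochondrial or sex genes, 30 components, 15 neighbours, leidenalg 0.10.2 at resolution 0.5), which gave 22 clusters. Names came from marker lists, with score limits set after the data were seen.

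Raw counts were summed per library and class. edgeR 4.0.16 in R 4.3.3 tested them (TMM scaling, its own filter on low counts, quasi-likelihood test) over all genes with Benjamini-Hochberg adjustment at 0.05. Cocaine was tested with sex as covariate and 1 residual degree of freedom, class pairs with library as block, and the difference of effects as an interaction with library as block. The spread came wholly from a trend over all genes (infinite prior degrees of freedom) in some cocaine fits. Those were Pvalb/Pthlh interneurons, astrocytes, oligodendrocyte precursors and, tested apart, the Calcr and Zfp804a D2-MSN clusters. Fits without 1 library had no sex term, and the lone library of a treatment was assumed to vary like the others. Alternatives were DESeq2 1.42.0, other scalings, count filters, doublets kept, cadherins and protocadherins kept in the clustering, and D1-MSN and D2-MSN nuclei gated 1 by 1. The fits were tested on simulated data with known changes.

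The genes, lists and comparisons were chosen with earlier results of these data known. Named by rule were, per neuron class, up to 4 genes with the highest ratio to every other class and up to 2 with the lowest, per glial class up to 3, per class pair up to 5 in each direction with the smallest adjusted p, every gene that passed for cocaine or sex, and the 5 smallest p for cocaine in D1-MSNs and D2-MSNs. Others were named after their values were seen. All 34 symbols were found in the RefSeq gene table. There, 18 of the 34 symbols overlap another gene model and 2, Cdh23 and Pcdh11x, a coding gene, so reads in overlaps may not be told apart. The labels carry no replicate numbers.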

Additional observations from a re-analysis of the deposited data

Results flagged for a closer look

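The effect of cocaine on Cdh11 passed a test of its difference between D1-MSNs and D2-MSNs. The log2 difference in D1-MSNs minus that in D2-MSNs was 0.36 (SE 0.07, adjusted p = 0.0221 by edgeR, with library as block). The saline libraries held 181 and 225 CPM in D1-MSNs and 206 and 275 in D2-MSNs, and the cocaine libraries 196 and 219 in D1-MSNs and 178 and 210 in D2-MSNs. The D1-MSN and D2-MSN sums come from the same 4 libraries, and each mixes its clusters in shares that differ between libraries. Without the cocaine female library the difference was 0.32 and did not pass (adjusted p = 0.916 by edgeR). Without each of the other 3 it was 0.31 to 0.42 and passed.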

How the results depend on the processing

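The 85 named results had 905 alternatives, of which 811 kept direction and side of the threshold, 88 lost their call, 4 gained one and 2 turned in sign. Those were Cdh12 (-0.115) and Cdh8 (-0.18) in astrocytes with no doublet removal. The count of genes of the set called for cocaine against saline within each cell class was 13. It was 24 with no filter on low counts, 4 with no sex covariate (no replicate block), 1 by DESeq2, 6 with no doublet removal and 4 to 19 without 1 library. In D1-MSN the 0 became 1 with no filter, 4 with nuclei gated 1 by 1 and 0 to 4 without 1 library. In D2-MSN the 1 became 2 with total UMIs only, 0 with at least 10 UMIs in every library, 0 with no sex covariate, 0 by DESeq2, 2 with gated nuclei and 0 to 2 without 1 library. In Pvalb/Pthlh interneuron nuclei the 8 became 5 with total UMIs only, 3 with no sex covariate, 1 by DESeq2, 5 with no doublet removal and 1 to 6 without 1 library.

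For females against males, D1-MSN gave 3 in place of 0 with no filter, 1 with no doublet removal and 0 to 4 without 1 library, and D2-MSN gave 0 to 2 in place of 3 without 1 library. The difference of the cocaine effect between D1-MSN and D2-MSN gave 4 in place of 1 with no filter and 0 to 4 without 1 library. D1-MSN against D2-MSN gave 7 in place of 14 and Reln-gated against Htr4-gated D1-MSN 12 in place of 19 with no library block. The labels carry no replicate numbers. Sex, which the labels share between treatments, was the block for cocaine, and library the block for class pairs. Depth limited the Adamtsl1 and Stac-led cluster, whose saline female library summed to 187722 UMIs, where 13 of the 35 genes could be tested.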

Other observations

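Some cadherin genes lie side by side in the RefSeq gene table. Cdh12 and Cdh18, with no coding gene between them, had levels that went together over the 11 neuron classes (Pearson r 0.796 of log2 CPM), and so, less closely, did Cdh10 and Cdh12 (r 0.507), also direct neighbours. The Adamtsl1 and Stac-led cluster was lowest for Cdh12 and Cdh18, at 17.8 and 16.8 CPM. Cdh7 and Cdh19, direct neighbours too, went opposite ways (r -0.785), although Cdh19 was low in neurons. The other 3 pairs of direct neighbours were Cdh5 and Cdh11 (r -0.144), Cdh3 and Cdh1 (r 0.00132) and Cdh26 and Cdh4 (r -0.149). Cdh5, Cdh1 and Cdh26 were hardly read in neurons, with highest class means of 0.931, 2.01 and 0.574 CPM, so their r values say little. Pcdh17 and Pcdh20, with 3 coding genes between them, had r 0.558, and Cdh11 and Cdh8, with 2, had r -0.327. These are descriptions over 11 classes that share their libraries.

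An unnamed cluster led by Bcas1 and Tmem108, with 32, 30, 48 and 39 nuclei in the libraries, in the order above, held 3551, 3282, 2909 and 2959 CPM of Cdh20. That was above every library of astrocytes, whose mean was 1178 ± 167 CPM, and of oligodendrocyte precursors, at 1303 ± 162. Pcdh15 in the same cluster was 651 ± 131 CPM, against 7288 ± 280 in precursors and 8.94 ± 3.57 in oligodendrocytes.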
